A study of Mus musculus with 4 samples.

Results

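The Hoxa cluster on mouse chromosome 6 was described here from the ATAC-seq peaks of hematopoietic stem cells (HSCs) with and without Med23, a subunit of the Mediator complex that links transcription factors to RNA polymerase II. Its members were the 9 genes Hoxa3, Hoxa4, Hoxa5, Hoxa6, Hoxa7, Hoxa9, Hoxa10, Hoxa11 and Hoxa13, all of which were found in the annotation. Every peak that overlapped the span from the first to the last base of these genes, extended by 50 kb on both sides, was taken. This window was chr6:52119062-52310880 in mm10, a stretch of 191.819 kb. It held 9 of the 37919 peaks of the wild-type list and 10 of the 37639 peaks of the knockout list, which joined into 12 separate regions.

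HSCs of the LSK CD150+CD34-CD48- phenotype were sorted from the bone marrow of C57BL/6 mice, with 5000 cells per reaction. This phenotype is that of the labels, while the methods of the study give the sort as CD150+CD48- LSK, with no CD34 gate. The WT group was Med23floxp/flowp without cre, and the KO group was Mx1-cre;Med23floxp/flowp. The floxed Med23 alleles were thus shared by both groups. Mx1-cre is switched on by interferon or poly(I:C) and deletes in blood cells and in other interferon-responsive tissues. In the study, Mx1-cre deletion was induced by repeated intraperitoneal injections of poly(I:C). The ATAC-seq methods do not say whether the WT mice were injected too. The paper states that poly(I:C) may stress and activate HSCs, and its part in the values below was not tested. The comparison asked how chromatin accessibility differed in HSCs that had lost Med23. The labels name 2 samples of each genotype, but 1 peak list per genotype, so that no value below carries a replicate error and no test between genotypes was possible. Each 95% interval given covers counting error in a single list only.

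The Hox genes encode homeodomain transcription factors that lie in 4 clusters in mammals and are read along each cluster in the order in which they act along the body axis. In the blood system the Hoxa genes, above all Hoxa5 to Hoxa10, are known for their expression in HSCs and for a decline as cells mature. Hoxa9 acts with its cofactor Meis1 and is a driver of acute leukemia when it stays on. ATAC-seq marks stretches where a transposase can enter, and Hox clusters in a repressed state are known for Polycomb-bound, compact chromatin.

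The DNA under the peaks is shown for 5 regions that recur below, from the RefSeq copy of GRCm38.p6 (mm10), on the plus strand, with annotated untranslated sequence left out. In the first 3 the capitals mark each match to CCAAT, the box bound by NF-Y, or to CACGTG, the E box bound by MYC and USF factors. In the last 2 they mark the 11 bases centred on the summit, the base with the most reads. The first lies at a gene start with a peak in WT alone and the second at one with a peak in both lists, the third lies between Hoxa6 and Hoxa7, and the last 2 were present in 1 list alone.
Hoxa4 start, WT list alone, chr6:52191866-52192026: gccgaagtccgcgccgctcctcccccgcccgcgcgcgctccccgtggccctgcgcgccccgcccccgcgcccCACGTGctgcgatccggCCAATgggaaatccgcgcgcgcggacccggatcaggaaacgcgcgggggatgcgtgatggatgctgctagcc
Hoxa7 start, both lists, chr6:52217506-52217692: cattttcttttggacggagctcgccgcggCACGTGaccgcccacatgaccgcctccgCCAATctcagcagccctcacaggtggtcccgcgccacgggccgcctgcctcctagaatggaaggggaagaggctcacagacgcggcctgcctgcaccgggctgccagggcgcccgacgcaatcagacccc
Distal start of Hoxa3, both lists, chr6:52213340-52213522: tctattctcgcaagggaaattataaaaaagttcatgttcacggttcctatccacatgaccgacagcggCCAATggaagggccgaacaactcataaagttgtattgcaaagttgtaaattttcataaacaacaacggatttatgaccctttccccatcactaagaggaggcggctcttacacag
Hoxa9 intron, WT list alone, chr6:52230498-52230707: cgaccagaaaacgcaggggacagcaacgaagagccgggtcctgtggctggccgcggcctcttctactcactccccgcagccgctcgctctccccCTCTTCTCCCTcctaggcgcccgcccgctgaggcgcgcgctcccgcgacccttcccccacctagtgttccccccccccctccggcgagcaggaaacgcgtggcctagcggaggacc
Hoxa11os exon, KO list alone, chr6:52246477-52246622: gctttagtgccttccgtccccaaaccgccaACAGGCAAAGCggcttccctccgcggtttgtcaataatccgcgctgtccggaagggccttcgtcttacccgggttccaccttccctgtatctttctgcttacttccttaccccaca

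The Hoxa9 intron stretch was printed also because it sits beside Mir196b, a microRNA gene of the cluster that itself targets Hox mRNAs. Its mature 5′ arm, read from the minus strand at chr6:52230129-52230150, is given from RefSeq with the seed, the bases that pair with targets, in capitals.
mmu-miR-196b-5p: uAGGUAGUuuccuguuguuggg

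Peaks in the cluster were low for promoters, though in WT near the median of the list. The height of a peak is given as its pileup, the number of fragments or reads that lie over the summit, which was recovered from the deposited scores and needs no scaling by gene length. A low pileup cannot tell an opening in few cells from a weak opening in many. In the window the pileup ran from 8 to 29 in the WT list, with a median of 17, and from 7 to 26 in the KO list, with a median of 14. Over all peaks of the lists the median was 18 in WT and 19 in KO. Among all peaks with a summit within 1000 bp of an annotated start, the median was 28 in both lists. Fold enrichment is the pileup over the local background that the peak caller used, with the same small constant added to both. That constant lowers the ratio most where pileup and background are low. Fold enrichment was below the median of its list for 9 of 9 WT peaks and 10 of 10 KO peaks. The highest of them stood at percentile 42.3 of the WT list and 39.9 of the KO list.

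**Figure D1:**
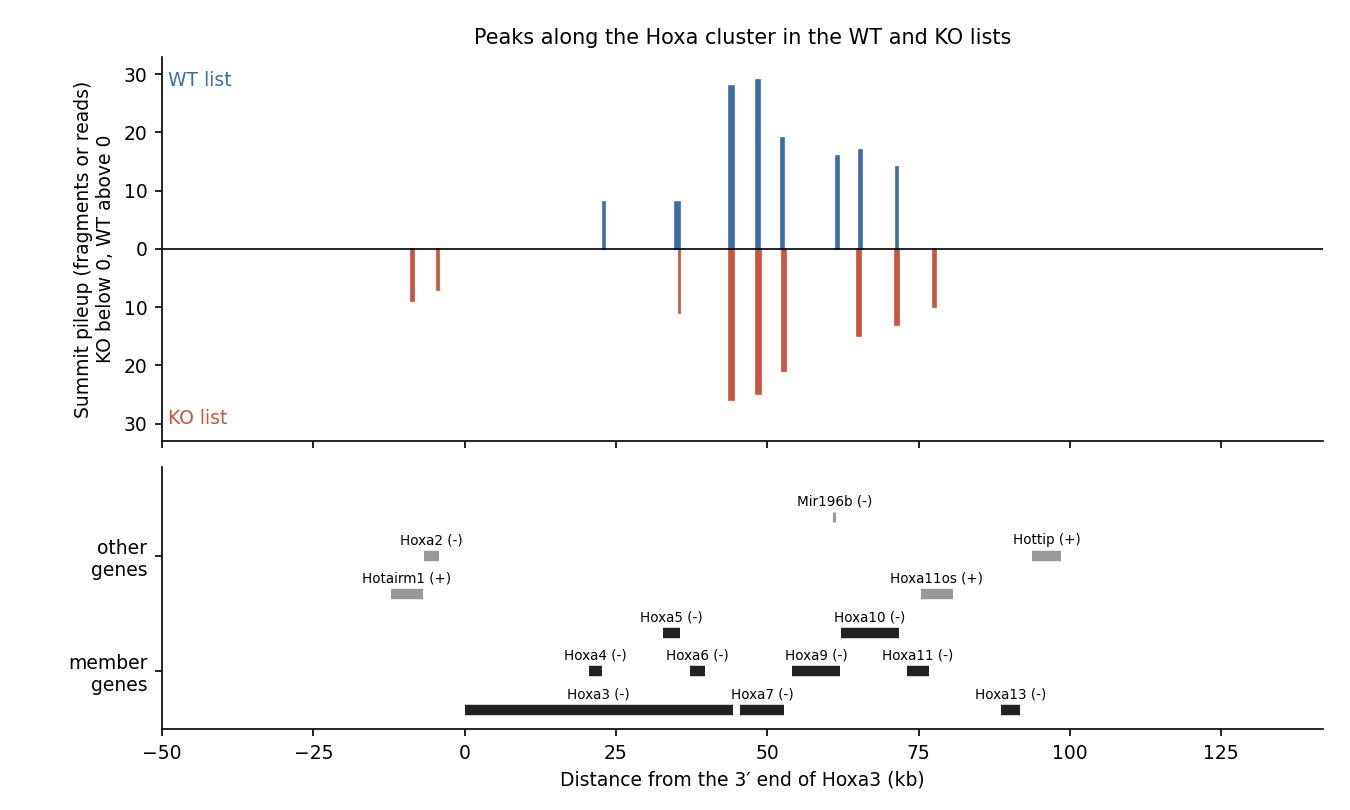
Peaks along the Hoxa window by distance from the 3′ end of Hoxa3 in kb, with bars upward for the WT list and downward for the KO list, bar width the peak and bar height its summit pileup. Genes are drawn below with their strand, 1 shared region before Hoxa3 is not drawn, and the tallest bars of both lists stand at the distal Hoxa3 start and the Hoxa7 start, at 28 and 29 in WT and at 26 and 25 in KO.

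The peaks gathered in the middle of the cluster. From Hoxa5 to Hoxa10, a stretch of 39.1 kb, the WT list had 7 peaks that covered 9.42% of the bases and the KO list 6 peaks that covered 9.71%. The 50 kb before Hoxa3 held 1 WT peak and 3 KO peaks. From Hoxa11 to Hoxa13 the WT list had 0 peaks and the KO list had 1, and the 50 kb past Hoxa13 had 0 in both lists. The order of openness along the cluster was thus the same in outline in both genotypes, with the 5′ end, which holds the genes of the posterior body, almost bare.

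Hoxa3, the most anterior member, had its peak far from the body of its coding exons. The peak lay over the distal start of Hoxa3, between Hoxa6 and Hoxa7, at chr6:52212821-52213520 in the WT list. Its summit was 81 bp from that start in WT and 58 bp in KO, inside an exon of the antisense RNA Hoxaas3, and 78 and 55 bp from the start of the predicted gene Gm28308. The pileup was 28 in WT and 26 in KO. These were the second highest and the highest values of the window. Since the starts lie this close together, the peak cannot be given to 1 of the genes.

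Hoxa4 had a peak in the WT list alone, 163 bp from its start. The pileup there was 8, with an interval of 3.45 to 15.8, and in KO the nearest summit was 12771 bp away. Of all 1902 WT peaks with a pileup of 8, 64.9% had no overlapping KO peak, so a WT peak of this height was more often without a partner than with one.

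Hoxa5, which is expressed in HSCs, had a low peak over its start in both lists. The pileup was 8 in WT and 11 in KO, with the summits 115 and 63 bp from the start. The intervals, 3.45 to 15.8 and 5.49 to 19.7, overlapped. Hoxa6, the neighbour of Hoxa5, had no peak within 1000 bp of its start in either list, and the nearest summit was 4250 bp away in WT and 4198 bp in KO.

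Hoxa7 had a peak as high as that of the distal Hoxa3 start within counting error, and its summit fell on the same base, 77 bp from the start, in both lists. The pileup was 29 in WT and 25 in KO. Both lists had another peak farther upstream, near the first base of a longer Hoxa7 transcript. It reached 19 in WT, 325 bp from that start, and 21 in KO, 50 bp from it. The summits of this upstream peak were 375 bp apart, although the peaks overlapped.

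Hoxa9, the member best known in HSCs and in leukemia, had a peak in the WT list alone. The pileup was 16, with an interval of 9.15 to 26.0. The peak lay in a Hoxa9 intron, 65 bp from the start of a transcript outside the basic annotation set and 432 bp from the start of the Mir196b hairpin. In the KO list the nearest summit was 3169 bp from any Hoxa9 start. With the basic set alone, Hoxa9 had no promoter peak in either list. Of all 1288 WT peaks with a pileup of 16, 16.4% had no overlapping KO peak. Those peaks were matched on pileup alone, while the fold enrichment of this peak stood at percentile 0.45 of the WT list. The share therefore does not show that a missing partner was unusual for such a peak. The local background at this WT peak was 4.08 times the genome-wide level, and its fold enrichment, 2.89, was the lowest of the window, with a −log10 q of 2.66. The KO list holds no value for stretches that missed the threshold of the caller.

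Hoxa10, which acts in HSC expansion and in myeloid cells, had 2 peaks in each list. The peak in its coding exon had a pileup of 17 in WT and 15 in KO, 674 and 681 bp from the nearest Hoxa10 start. The peak in its 5′ untranslated region, at the start of the longer transcript, had 14 in WT and 13 in KO. These 4 values lay within counting error of each other.

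Hoxa11, a gene of limb and uterus, had a peak in the KO list alone. The pileup was 10, with an interval of 4.80 to 18.4, and the summit was 702 bp from the Hoxa11 start, in an exon of the antisense RNA Hoxa11os. In WT the nearest summit was 5209 bp away. Of all 1773 KO peaks with this pileup, 46.2% had no overlapping WT peak. Hoxa13, the most posterior member, had no peak within 14290 bp of a start in KO or within 20216 bp in WT.

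Counted over the members, 6 of 9 had a promoter peak in the WT list and 5 of 9 in the KO list, a promoter peak being one with its summit within 1000 bp of an annotated start. Over all coding genes the share was 61.1% in WT and 60.8% in KO, so the counts of members lay near the background. If any peak over a start was counted instead, the number was 3 in WT and 4 in KO, which turns the order of the lists, and at a −log10 q of 10 or more it was 0 in WT and 1 in KO. Both lists had one for Hoxa3, Hoxa5, Hoxa7 and Hoxa10, while Hoxa4 and Hoxa9 had it in WT alone and Hoxa11 in KO alone. When the peaks of a list were ranked by pileup, 0 of 8 neighbouring pairs in WT and 0 of 9 in KO differed beyond counting error. Ranking sets like values side by side, so this count was bound to be low and does not show a flat profile. The ends of the order were 29 at the Hoxa7 start and 8 at the Hoxa4 and Hoxa5 starts in WT, and 26 at the distal Hoxa3 start and 7 at the Hoxa2 start in KO. They were picked as extremes and are given without a test.

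**Figure D2:**
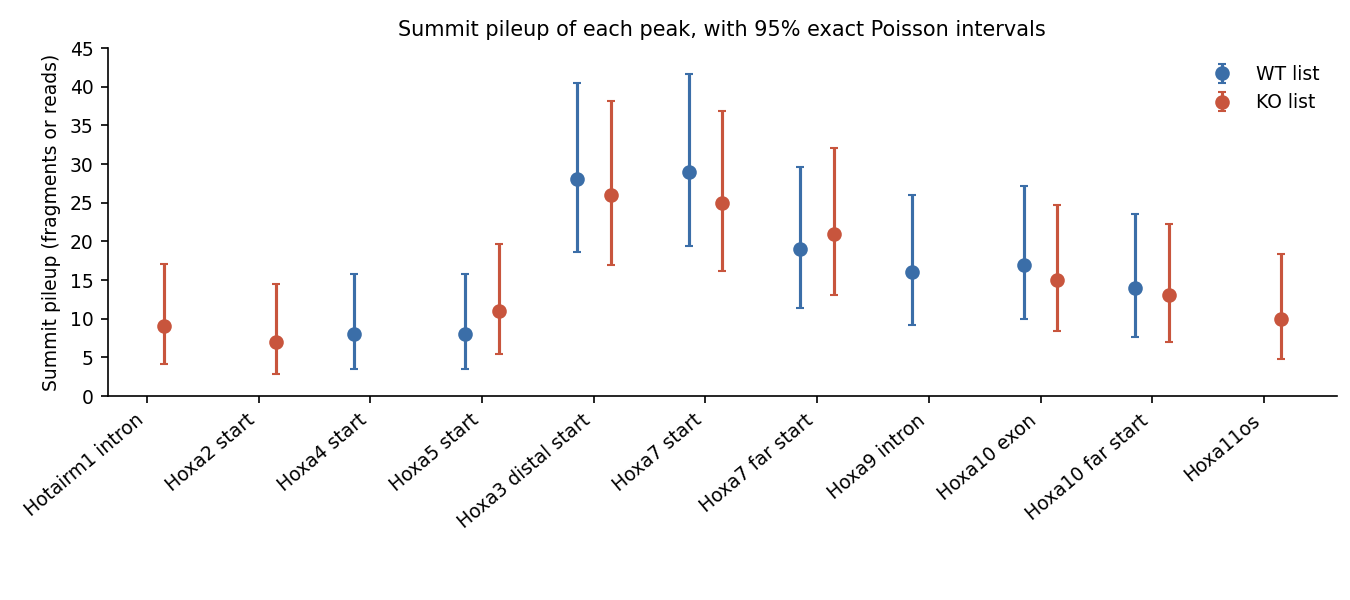
Summit pileup of 11 of the 12 regions in order along the chromosome, with 95% exact Poisson intervals; a missing point means that the list had no peak there. The WT and KO intervals overlap at all 6 regions drawn that are in both lists, and the 5 regions in 1 list have pileups of 16 or less.

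Outside the members, an intron of Hotairm1, a noncoding RNA of maturing myeloid cells, had a KO peak with a pileup of 9, and the Hoxa2 start had a KO peak with 7, its summit 178 bp away. Neither had a WT partner. Among all KO peaks with those pileups, 52.9% and 70.9% had none either.

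Most of the window was closed. A closed segment was a run of at least 10 kb with no peak. Each list had 4, which made up 80.2% of the window in WT and 80.5% in KO. In 4 stretches the closed segments of both lists coincided. These were the first 39.19 kb of the window, 26.995 kb from the Hoxa2 start to the Hoxa4 start across the 3′ part of the Hoxa3 gene, 11.485 kb between the starts of Hoxa4 and Hoxa5, and 63.976 kb from Hoxa11os past Hoxa13. The segments differed where a peak was in 1 list. Without the Hoxa4 peak, the KO list had a single closed run of 39.578 kb up to Hoxa5, and without the Hoxa9 peak it had one of 11.73 kb that held all of Hoxa9. In WT the last run was 70.258 kb and held Hoxa11 as well as Hoxa13.

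The overlap between genotypes was near that of peaks of like height elsewhere. Of the WT peaks, 7 of 9 (77.8%, exact binomial interval 39.99 to 97.2%) overlapped a KO peak, against 74.1% of all WT peaks with a pileup of 8 to 29. Of the KO peaks, 7 of 10 (70.0%, interval 34.8 to 93.3%) overlapped a WT peak, against 69.9% of all KO peaks with a pileup of 7 to 26. Regions in the WT list alone were 2 of 12, against a background of 18.1% over all merged regions, and those in the KO list alone 3 of 12, against 17.2%.

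At the 7 regions in both lists the pileups of the genotypes lay close together. Each pileup was divided by the genome-wide background of its own list before the KO to WT ratio was taken. The median log2 ratio was -0.02. It was highest at Hoxa5, at 0.55, and was -0.13 at the Hoxa7 start. The sign of the median depends on the scaling, and the median was 0.13 when each background was first divided by the narrowest peak of its list. Over all 28909 such regions the median was 0.17 and the quartiles were -0.10 and 0.43. The ratio was below 0 at 5 of 7 Hoxa regions, against 34.4% of all regions. With the other scaling it was below 0 at 1 of 7, against 21.4% of all regions, whose median was then 0.32. Past 1.5-fold in either direction there were 0 of 7, with a background of 18.6% (14.9% higher and 3.66% lower in KO). All 7 were promoter peaks, while that background holds peaks of every kind. Among coding genes with a promoter peak in both lists, 7.46% were past 1.5-fold higher and 3.23% lower in KO. Their median log2 ratio was 0.09, with 37.8% below 0. All 7 intervals contained both 0 and the median of all regions, so a difference from either was not detectable at this depth. The interval was -0.96 to 0.69 at the Hoxa7 start, the narrowest but for that of the distal Hoxa3 start (-0.85 to 0.80), and -0.90 to 2.06 at Hoxa5.

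**Figure D3:**
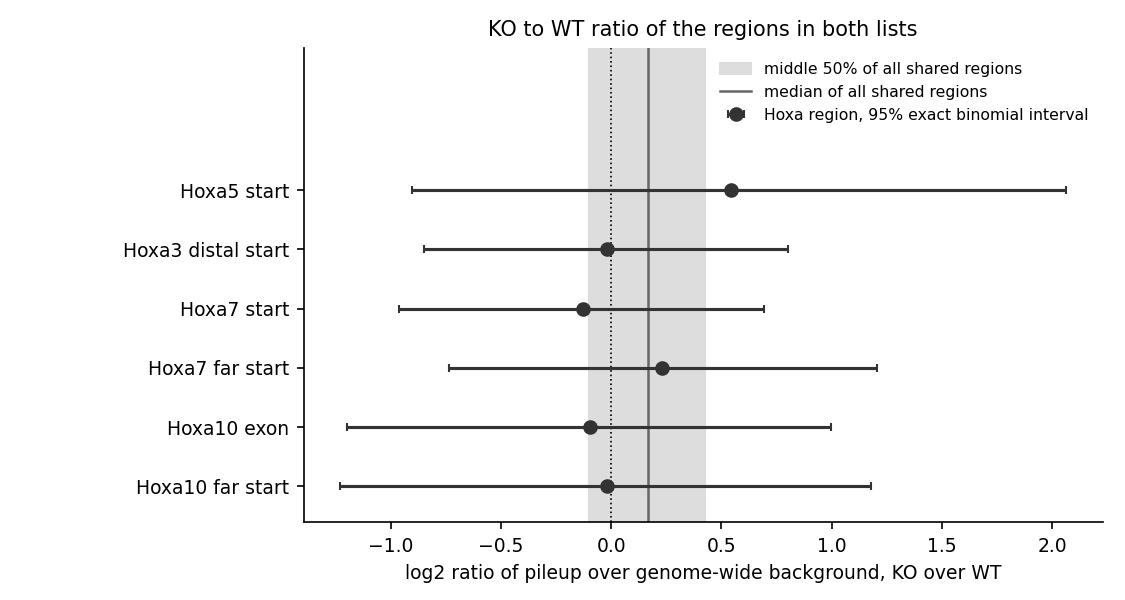
KO over WT ratio (log2) of the scaled pileup at 6 of the 7 regions in both lists, with 95% exact binomial intervals; the grey band holds the middle 50% of all shared regions and the line their median of 0.17. Every interval drawn spans 0 and the line.

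The local background around the peaks followed a pattern of its own. For each peak the caller sets the higher of a genome-wide level and a level measured around the peak as background, and this value was recovered with the pileup. In WT it was 4.27, 4.81 and 4.20 times the genome-wide level at the distal Hoxa3 start, the Hoxa7 start and the upstream Hoxa7 start. In KO it was 3.07, 3.79 and 3.52 times. The Hoxa10 exon had 3.41 in WT and 2.23 in KO, and the far Hoxa10 start had 1.90 and 1.00. At Hoxa4 in WT, and at Hoxa5 and Hoxa11os in KO, it was at the genome-wide level. The median over the peaks was 3.41 in WT and 1.62 in KO, against 1.55 and 1.48 for all peaks of the lists. The Hoxa medians include the peaks in 1 list alone, so they are over partly different regions. The shared regions are compared below. The peaks from the distal Hoxa3 start to the Hoxa10 exon thus stood on a raised background in both lists, while those at Hoxa5 did not. Reads of a peak and of its close neighbours can count toward that level, and how wide a surrounding the caller used is not given in the sources used here.

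The local background was lower in KO at all 7 shared regions, where 69.3% of all shared regions were lower. With the genome-wide background divided by the narrowest peak of its list, it was lower at 6 of 7. That scaling raises every KO to WT ratio of the background by the same factor, and the share over all regions is not given for it. The 69.3% does not apply there, so the 6 of 7 cannot be read against a background. The comparison was chosen after the values were seen. The KO to WT ratio ran from 0.527 at the far Hoxa10 start to 0.931 at Hoxa5, with a median of 0.731, against a median of 0.912 and quartiles of 0.793 and 1.01 over all shared regions. At both ends of this range the KO value was the genome-wide level, below which the caller does not go, so the level around those peaks in KO could be lower still. It was past 1.5-fold lower at 2 of 7, both in Hoxa10, against 6.17% of all. Neighbouring regions of the cluster share surroundings, so that the 7 values are not independent of each other. With the pileups close and the background lower, the fold enrichment was higher in KO at 7 of 7 regions, as it was at 22417 of the 28909 shared regions. Whether depth or the share of reads in peaks had a part in this was not tested.

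**Figure D4:**
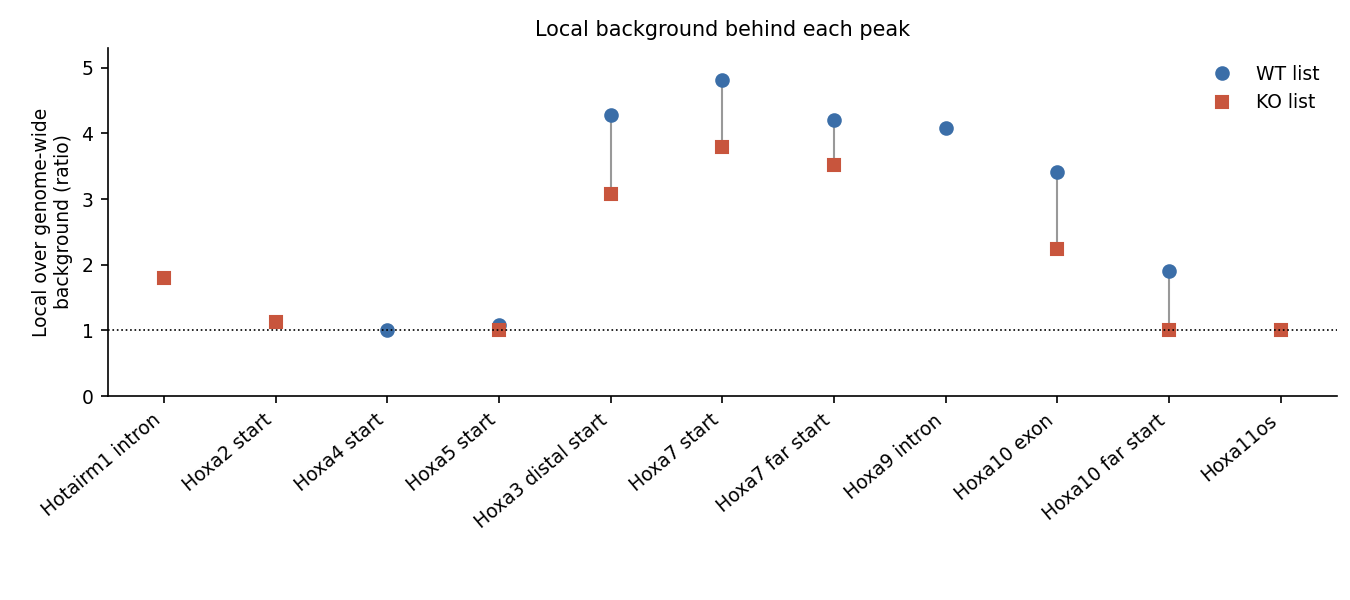
Local background behind each peak as a multiple of the genome-wide background of its list at 11 of the 12 regions, in order along the chromosome, with a line joining the WT and KO values of a shared region. The KO value lies below the WT value at all 6 joined pairs, and the highest WT value is 4.81 at the Hoxa7 start.

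By its medians, the sequence under the peaks was that of CpG-rich promoters. The median GC content was 61.9% in WT and 59.5% in KO, and the ratio of the CpG count to the one expected from the C and G content was 0.815 and 0.748. All peaks with a summit within 1000 bp of a start had medians of 60.1% and 60.3% GC and 0.705 and 0.707 for CpG, which lay close to those of the Hoxa peaks. Single peaks in the KO list alone lay lower. The Hoxa2 peak had 47.7% GC, against a median of 51.7% over all KO peaks. The CpG ratio was 0.405 in the Hotairm1 intron and 0.478 at Hoxa11os, against 0.331 over all KO peaks. All 9 WT and 10 KO summits lay within 1000 bp of an annotated start, against 40.3% and 40.5% of all peaks. Starts are dense here, and 36.5% of the bases of the window and 53.0% of those of the member span lie this close to one. With basic transcripts alone the counts were 8 of 9 in WT and 9 of 10 in KO, against 37.0% of all peaks in each list.

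Known binding motifs were searched within 100 bp of the summits, on both strands. The shares beside these counts are over all peaks, of which 40.3% in WT and 40.5% in KO lay near a start. They are thus not matched to the promoter peaks of the window, and a low count does not show depletion. TGTGGT, the RUNX motif, was in 0 of 9 WT and 0 of 10 KO peaks, against 20.02% and 20.14% of all peaks. The GATA motifs, spelled AGATAA or AGATAG or TGATAA or TGATAG, were in 1 KO peak, at Hoxa2, against 21.7% of all KO peaks. Within 200 bp, RUNX was in 1 of 9 WT and 0 of 10 KO peaks, against 30.1% and 30.4% of all peaks. GATA was then in 1 of 9 WT and 2 of 10 KO peaks, against 39.1% and 38.9%. The PU.1 motif GAGGAAGT was in 1 WT peak, against 6.15% of all WT peaks. CAGCTG, an E box, was in the upstream Hoxa7 peak of KO, against 14.1%. The CTCF consensus had no exact match in the window, against 2.97% of all WT and 2.92% of all KO peaks, and with at most 1 mismatch, an alternative chosen after the data were seen, it was in 1 of 9 WT peaks and 2 of 10 KO peaks. ACCGGAAGT of ETS factors, TGACTCA and TGAGTCA of AP-1 and TGATTTAT of HOX with PBX had no match.

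A pair of short boxes stood out when the sequences were read, and were counted only then. CACGTG lay within 100 bp of the summit in 4 of 9 WT peaks, among them those at Hoxa4, Hoxa5 and Hoxa7, and in 3 of 10 KO peaks, among them those at Hoxa5 and Hoxa7. All peaks near a start had it in 6.80% of WT and 6.96% of KO. CCAAT was in 4 of 9 WT and 4 of 10 KO peaks, against 28.01% and 28.45% of those near a start. As the sequences above show, the Hoxa4 and Hoxa7 starts held both boxes, with CACGTG first on the plus strand and 11 and 22 bases between them. A match is a string of letters and was not tested for binding.

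Among the 4 Hox clusters, measured from the first to the last coding gene, the Hoxa cluster had the largest share of bases under peaks in both lists. This share was 4.67% in WT and 5.60% in KO for Hoxa, 1.86% and 1.49% for Hoxb, 0% and 0.620% for Hoxc, and 1.57% and 3.18% for Hoxd. The whole genome had 1.03% and 1.02%. The spans differed in length, at 105.3 kb for Hoxa, 173.9 kb for Hoxb, 115.75 kb for Hoxc and 96.8 kb for Hoxd. Promoter peaks were found at 7 of 11 Hoxa genes in each list, but not at the same genes. They were found at 4 and 2 of 10 Hoxb genes, at 0 and 1 of 9 Hoxc genes, and at 0 and 3 of 9 Hoxd genes. Over all coding genes the share was 61.1% in WT and 60.8% in KO, so the Hoxa counts lay near the background. The highest pileup was 29 and 26 in Hoxa, 20 and 23 in Hoxb, and 16 and 22 in Hoxd. At a −log10 q of 10 or more the order was lost, with 0% in all 4 clusters in WT. In KO the share was then 0.681% in Hoxa, 0.576% in Hoxb, 0% in Hoxc and 1.08% in Hoxd. With 1 list per genotype the clusters were compared as values, without a test.

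**Figure D5:**
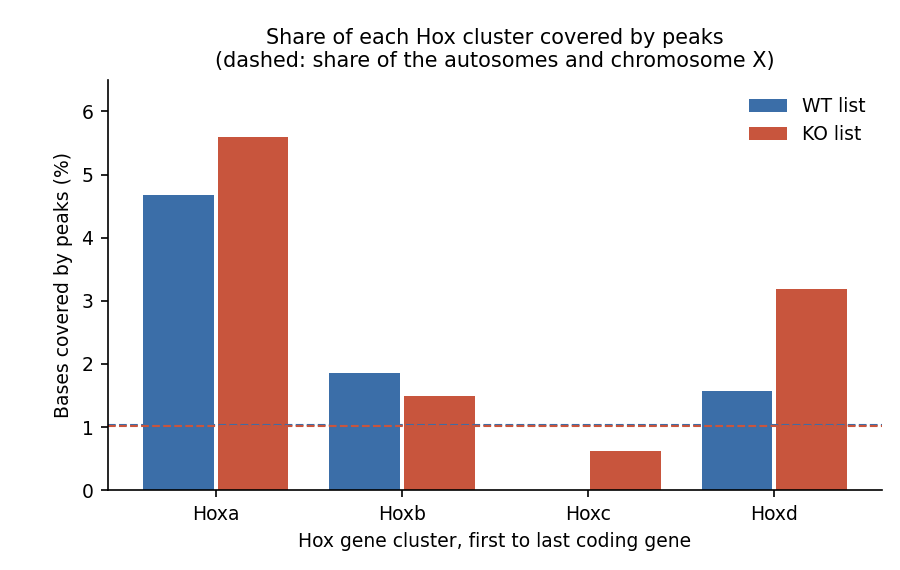
Percent of bases under peaks in each Hox cluster, from the first to the last coding gene, in the WT and KO lists; dashed lines give the share of the autosomes and chromosome X, 1.03% and 1.02%. The Hoxa bars, at 4.67% and 5.60%, are the tallest in both lists, and Hoxc has no WT bar since it had 0 WT peaks.

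Against windows of the same length across the genome the Hoxa window was dense in peaks but not extreme. Peaks covered 4916 bp in WT and 5897 bp in KO, which placed it at percentile 88.1 and 92.9 of 13721 windows. The span of the member genes alone stood at percentile 96.8 and 97.0 of 28674 spans of its own length. Of the 3 windows most like it in covered bases in both lists, the nearest is not described here. The next held 4 coding genes, among them Dusp5, Smc3 and Rbm20, with 4879 bp covered in WT and 5848 bp in KO. The last held the single coding gene Trpc6, with 4981 and 5921 bp.

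The genes that act with or on the Hoxa genes were taken as a list of 36 cofactors and regulators. Of these, 33 had a promoter peak in WT and 34 in KO, where 61.1% and 60.8% of all coding genes had one. Meis1, which binds DNA together with HOX proteins, had a promoter pileup of 64 in WT and 68 in KO. Kmt2a, the methyltransferase that keeps Hoxa genes active, had 31 in WT and 30 in KO.

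Among the 32 with a promoter peak in both lists the median log2 ratio was 0.09, against 0.09 over all coding genes with such peaks, and 2 were past 1.5-fold higher and 2 past it lower in KO. Of all those genes 7.46% were past it higher and 3.23% lower. Men1, the partner of Kmt2a, had 29 in WT and 42 in KO, and Bmi1, a Polycomb subunit, 28 and 43. Pbx2 had 21 in WT and 12 in KO, and Ctcf, the insulator protein, 47 and 28. All 4 intervals contained 0. Cdx4, which acts upstream of Hoxa genes in blood formation, had a low KO peak of 7 and no WT peak, and Cdx2 a WT peak of 8 and no KO peak.

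The cell and knockout labels could be checked only in part. Of 6 stem cell markers Kit, Mecom and Hlf had promoter peaks in both lists, with pileups from 28 to 60, while Ly6a, Slamf1 and Procr had none. Of 11 genes of other marrow cells, or of cells that the sort gate leaves out, 3 had one in both lists. Cd34, which the labels but not the methods of the study name in the gate, had 30 in WT and 37 in KO, and Cd48 had 7 and 8. Their part in the Hoxa values was not tested. The Med23 promoter had a pileup of 64 in WT and 85 in KO, which does not check the deletion, since the place of the floxed part is not given in the sources used here.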

How the data were processed

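ATAC-seq was done on 4 samples, and the deposited files hold 1 MACS2 peak list per genotype, named in the labels of both its samples. Whether reads were pooled is not given in the sources used here. The authors used Trim Galore for trimming, Bowtie2 for alignment to mm10, Picard against duplicate and mitochondrial reads, and MACS2 with --nomodel. Versions are not given there either. The deposited score, 10 times the −log10 q, was not used. The fold enrichment ratio and the −log10 p and −log10 q, made by the authors with MACS2, are values at each summit. From fold enrichment and −log10 p the whole pileup and the local background were recovered, matching within 0.001 for all but 3 WT and 5 KO peaks. The recovery was tested on scores recomputed from recovered values by the same assumed formula, which cannot test the formula itself. The intervals of the ratios were tested on simulated counts.

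Pileups were divided by the genome-wide background, the median of the 1000 lowest local backgrounds, which was 1.19 in WT and 1.13 in KO. The total depth is not known. Peaks of the 19 autosomes and chromosome X, 37887 in WT and 37615 in KO, served as background. Overlap meant at least 1 bp. Genes came from GENCODE M21 and sequences from RefSeq. Intervals are exact Poisson for pileups and exact binomial for shares and ratios. Python 3.11.15, pandas 2.3.3, scipy 1.17.1 and pysam 0.24.0 were used.

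Genes were named if they were members, held a summit in the window, or were in the list of HOX cofactors and regulators or the marker lists. The members and lists were chosen with earlier results of these data known. Some genes, and 1 shared region before Hoxa3, enter the counts but are not reported here. Alternative flanks, thresholds, overlaps, distances and scalings are given in the closing section.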

Additional observations from a re-analysis of the deposited data

How the results depend on the processing

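Of 120 alternative values 79 stayed near the value given, within 1.5 times for counts, 40 moved and 1 reversed. A −log10 q minimum of 5 left 4 peaks in the WT window that covered 1.22% of it, and 8 in the KO window that covered 2.58%. At a minimum of 10 the WT list had 0 peaks in the window, which covered 0% of it and 0% of the coding-gene span of Hoxa, and 0 members with a promoter peak. The KO list then had 1 peak, which covered 0.374% of the window and 0.681% of that span, 1 member with a promoter peak, 1.08% of Hoxd covered, and 0% of its peaks in both lists. With no flank, peaks covered 4.51% of the WT stretch. With flanks of 10 kb and 100 kb they covered 4.63% and 2.02% of the KO stretch. With 50 kb added around the coding genes, 2.39% in WT and 2.87% in KO were covered. Asking that the shared bases make up 50% or more of the WT peak and also of the KO peak left 33.3% of WT peaks and 30% of KO peaks in both lists. Counting any peak over a start site gave 3 members in WT and 4 in KO. Closed runs from 5 kb numbered 7 in each list. Dividing each background by the narrowest peak of its list turned the sign, as the median log2 ratio was 0.13 in place of -0.02 (0.32 over all regions), and 1 shared region passed 1.5-fold. Basic transcripts alone, a CTCF match with 1 mismatch, the other scalings of the local background and the CCAAT and CACGTG counts were chosen after seeing the data.

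Every Hoxa pileup was 29 or less, and at the 7 shared regions the differences between genotypes were within counting error. A peak in 1 list alone does not show that the other genotype was closed there. No paired analysis was possible because the peak lists, 1 per genotype, carry no replicate number, and leaving out a replicate was not run for the same reason.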
